A study of Bos taurus with 15 samples.

Results

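The genes described are the nuclear-encoded subunits of oxidative phosphorylation in the endometrium, the lining of the uterus, of 15 beef heifers at day 14 of pregnancy. They were chosen by name alone. An entry was taken when its symbol began with NDUFA, NDUFB, NDUFC, NDUFS or NDUFV, with UQCR, with COX and a digit from 4 to 8, or with ATP5, or when it was SDHA, SDHB, SDHC or SDHD. In the deposited table, which has 32671 entries, a total of 91 met this rule, and 0 of them were described as a pseudogene. Entries were placed by the role of the protein, except ATP5SL. Complex I has 45 entries, complex II 4, complex III 8, complex IV 17 and complex V 17. ATP5SL, listed in RefSeq as DMAC2, was left with complex V by its older symbol and is not counted in complex I. Of the 91 entries 80 encode subunits and 11 encode assembly factors or associated proteins that the symbols bring in, among them 8 complex I assembly factors. NDUFA4 and NDUFA4L2, named after complex I, were placed with complex IV, where the protein is now assigned. Complex III and IV subunits with other symbols, such as CYC1, and the mitochondrially encoded subunits are outside the rule.

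The heifers fell into 3 fertility classes of 5 animals each, High-fertile, Sub-fertile and Infertile. All of them, whatever the class, had estrus synchronised with prostaglandin, GnRH, a progesterone insert and estradiol, and all received an embryo produced in vivo on day 7, placed on the side of the corpus luteum. Biopsy forceps took the tissue once the uterine flush was done. The sources used here do not say how heifers were put in their class, how old they were or what each flush recovered, so no class is described as carrying or lacking an embryo. Each library is 1 heifer, and heifers are numbered 1 to 5 within a class only to name them.

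Oxidative phosphorylation is the final stage of aerobic energy supply. Complexes I and II pass electrons from NADH and succinate to ubiquinone, complex III hands them to cytochrome c and complex IV to oxygen, and complexes I, III and IV pump protons across the inner mitochondrial membrane. Complex V, the ATP synthase, lets the protons back through its Fo part and makes ATP on its F1 part. Most subunits are encoded in the nucleus, translated in the cytosol and imported, and their assembly with the mitochondrially encoded core needs dedicated factors. In the endometrium of early pregnancy the epithelium secretes the fluid that feeds the elongating conceptus.

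Library totals were 38017136 to 62858724 counts, and the members together took 0.413% to 0.529% of them. The labels name no batch, but the counts of 372 entries described as pseudogene or ribosomal RNA placed the libraries in technical sets of 8, 5 and 2, a grouping inferred from the data. The 8-library set holds High-fertile heifers 2 to 5, Sub-fertile 3 and 4 and Infertile 1 and 4. The 5-library set holds Sub-fertile 1, 2 and 5 and Infertile 3 and 5, and no High-fertile heifer. The 2-library set holds High-fertile 1 and Infertile 2. Class and set are therefore partly confounded, and values with the set as a covariate or within the 8-library set are given beside many of the results. The defining markers of endometrium were present in every library. The 7 stromal markers summed to 9762 to 38340 CPM (the counts of a gene scaled to a common library total), and the 9 epithelial markers to 589 to 1682 CPM. The 10 smooth muscle markers summed to 711 to 28120 CPM, with 1066 to 13720 in High-fertile and 793 to 6922 in Sub-fertile heifers. Trophoblast markers summed to 3.30 to 24.4 CPM, and PAG11 was at 0 in every library. Nearly all of the sum was PAG1, at 2.435 to 24.2 CPM. IFNT2 measured 0.251 to 1.51 CPM and PAG2 0 to 0.131 CPM.

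Most subunits were abundant, and complex V stood highest. On the length-scaled FPKM scale, the median level of the tested subunits was 96.0 for complex V, 75 for complex II, 56.4 for complex III, 46.5 for complex IV and 37.4 for complex I. The 11 assembly factors and associated proteins had a median of 6.85 FPKM. Of the 91 entries 89 passed the filter on low counts, and COX6A2 and COX6B2 did not.

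**Figure D1:**
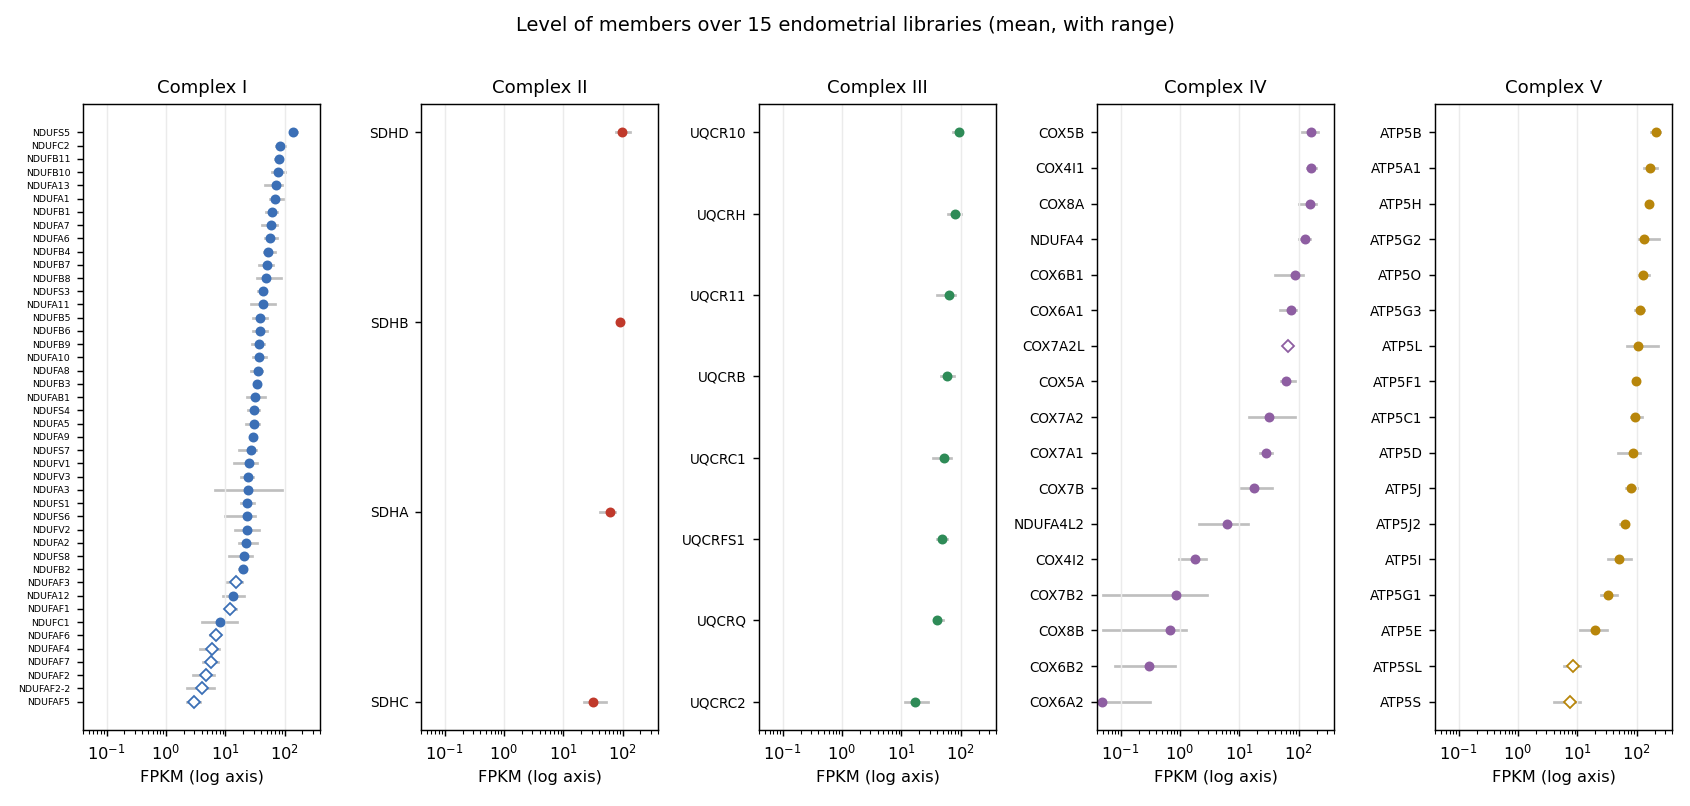
Mean level of the members, with 1 left out, in FPKM on a log axis, with a line from the lowest to the highest of 15 libraries; filled circles are subunits and open diamonds are assembly factors or associated proteins, and lines that reach a level of 0 are drawn to 0.05. Complex V lies to the right with ATP5B at 214.5 FPKM, the assembly factors lie at the bottom of complex I, and the lowest entries are the tissue-restricted isoforms of complex IV.

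In complex I the highest member was NDUFS5, an accessory subunit of the intermembrane side, at 140.0 ± 10.1 FPKM (SD, n = 15), and the lowest was the assembly factor NDUFAF5 at 2.92 ± 0.47 FPKM. In complex III the range ran from UQCRC2, a core protein that faces the matrix, at 16.7 ± 5.0 FPKM to UQCR10, a small subunit, at 92.1 ± 11.6 FPKM. In complex IV it ran from COX8B at 0.687 ± 0.403 FPKM to COX5B at 164 ± 28 FPKM. In complex V the associated protein ATP5S was lowest at 7.41 ± 2.0 FPKM and ATP5B, the catalytic beta subunit of F1, was highest at 214.5 ± 23.4 FPKM. The 4 subunits of complex II, which is also an enzyme of the citric acid cycle, lay closer together. The membrane anchor SDHD had a level of 97.0 ± 17.7 FPKM and the iron-sulfur subunit SDHB of 89.8 ± 5.9 FPKM. The flavoprotein SDHA had 60.3 ± 11.2 FPKM and the other anchor, SDHC, 31.7 ± 9.8 FPKM, but copies of SDHC take part of its reads, as described further on.

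Complex IV is the complex with the most alternative isoforms, and these endometria used the widely expressed form of nearly every subunit. COX4I1 took 98.4% to 99.3% of the FPKM of the COX4I pair, COX6A1 at least 99.6% of its pair and COX6B1 99.3% to 99.9%. COX8A, the general form, took 99.2% to 100% against COX8B. COX6A2, the form of heart and skeletal muscle, had 13 counts over all libraries and was at 0 in 11 of them. In a library at 0 the count allows up to 0.0783 CPM, the limit in Sub-fertile heifer 1, which covers counting error only. COX6B2, known from testis, had 135 counts in all.

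The COX7A pair was the exception. COX7A1, the form of muscle, took 22.2% to 68.5% of the FPKM of COX7A1 and COX7A2 together. Its own level differed little between sets, with a log2 fold change of -0.01 between the 5- and the 8-library set and 0.03 between the 2- and the 8-library set. The level of COX7A2, the general form, was 2.08 log2 units higher in the 2-library than in the 8-library set. The COX7A1 share was 51.9% to 68.5% in the 8-library set, 42.7% to 53.1% in the 5-library set and 22.2% to 32.7% in the 2-library set, so the share followed the technical set. COX7A2L, which helps join complexes III and IV into supercomplexes, had a level of 67.0 ± 6.2 FPKM. COX7B took 83.7% to 100% of its pair.

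The c subunit of the Fo ring, whose rotation couples proton flow to ATP synthesis, is encoded by 3 genes that give the same mature protein. ATP5G2 took 42.0% to 58.0% of their summed FPKM, ATP5G3 32.1% to 45.7% and ATP5G1 9.41% to 14.4%. The order ATP5G2 over ATP5G3 over ATP5G1 held for the means over 15 libraries, at 131 ± 37, 116 ± 12 and 33.4 ± 6.5 FPKM. The first and the next differ by less than the SD of ATP5G2. In High-fertile 2, Sub-fertile 1 and 3 and Infertile 3, 4 and 5, ATP5G3 lay above ATP5G2. The ATP5G2 share was 42.0% to 47.8% in the 8-library set, 42.95% to 48.6% in the 5-library set and 53.0% to 58.0% in the 2-library set. The share of ATP5G2 was thus highest in the 2-library set.

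Across libraries most members stayed within a narrow band. For the 87 tested members counted in every library, the median ratio of the highest to the lowest library was 1.75, and 58 of the 87 stayed under 2. SDHB had the smallest ratio, 1.24, and NDUFA9, a subunit at the base of the peripheral arm, the next at 1.26. At the other end NDUFA3 had a ratio of 13.7, NDUFA4L2 of 6.44, and COX6B1, NDUFS6, COX7B, ATP5L, NDUFC1 and COX7A2 were also over 3. Described copies take part of the reads of NDUFA3, COX6B1 and ATP5L, in shares that differ between sets, as given further on. The highest library was an Infertile heifer for 64 of the 89 tested members, a High-fertile heifer for 16 and a Sub-fertile heifer for 9. The lowest was a Sub-fertile heifer for 39, a High-fertile heifer for 37 and an Infertile heifer for 13. The highest values were uneven within a class. Of the 64, Infertile heifers 1, 2 and 5 held 25, 17 and 14, and Infertile 3 and 4 held 5 and 3. High-fertile heifer 1 held 14 of the 16. The 2-library set, 2 of 15 libraries, held the highest value for 31 of the members. No share over all genes was computed for the highest or the lowest library. These counts therefore have no background beside them and cannot be read as particular to the members.

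Averaged over members, each complex had its highest class mean in Infertile heifers. The mean log2 CPM over all tested members was 4.85 ± 0.15 (SD, n = 5) in High-fertile, 4.75 ± 0.10 in Sub-fertile and 4.96 ± 0.11 in Infertile heifers. For complex V it was 5.89 ± 0.17, 5.89 ± 0.04 and 6.05 ± 0.12, and for complex IV 3.95 ± 0.21, 3.70 ± 0.21 and 4.08 ± 0.17 in the same order. The complex IV mean includes COX7B2 and COX8B, whose counts near 0 make it depend on the prior count. The summed CPM of complex IV was 704.5 ± 74.1, 638.2 ± 67.8 and 720.8 ± 63.1 in the same order. The ranges of the classes overlapped in every complex. Complex I had mean log2 CPM of 4.51 ± 0.13, 4.43 ± 0.08 and 4.599 ± 0.11, complex II of 6.48 ± 0.19, 6.36 ± 0.11 and 6.51 ± 0.06, and complex III of 5.46 ± 0.16, 5.33 ± 0.15 and 5.50 ± 0.10. In a bulk biopsy fewer cells of a type and less RNA per cell cannot be told apart, and this holds for every level given here.

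**Figure D2:**
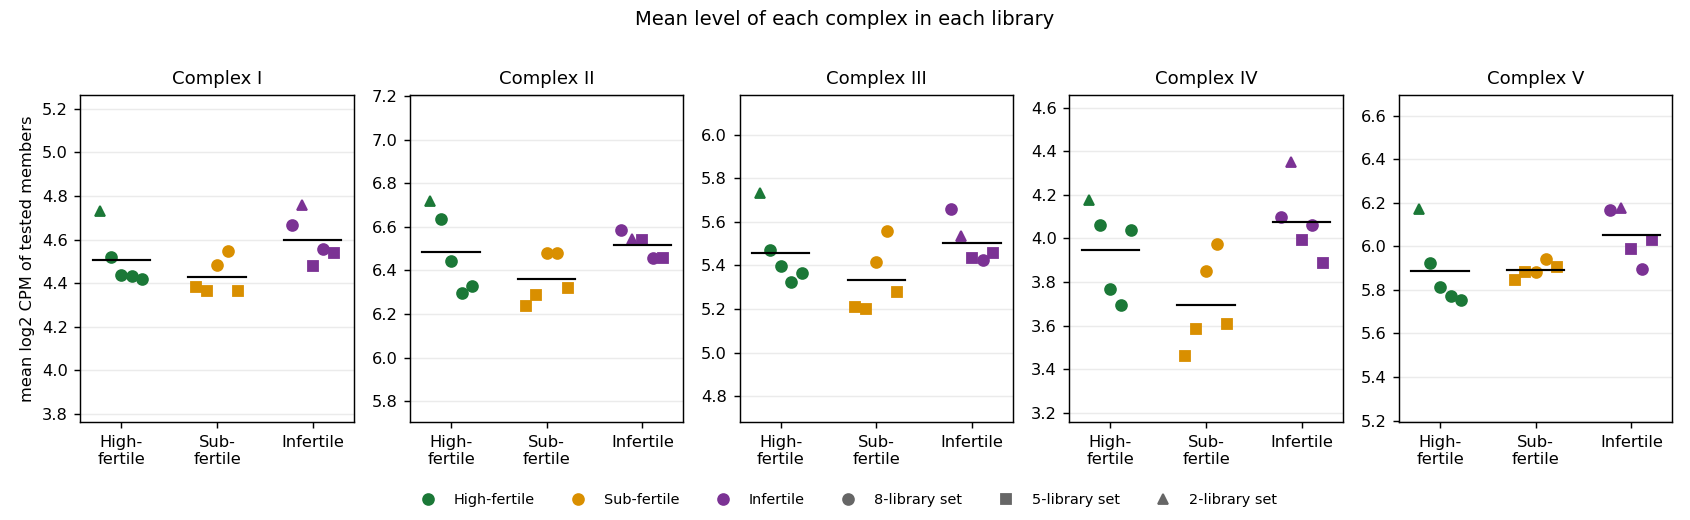
Mean log2 CPM of the tested members of each complex in each of 15 libraries; colour gives the class, the marker shape the technical set, and the bar the class mean. In every complex the Infertile mean is the highest bar, while the 2-library set (triangles) tops its class in High-fertile heifers and the 5-library set (squares) holds the low Sub-fertile values outside complex V.

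No member differed between classes after adjustment over the 19962 genes tested. With edgeR's quasi-likelihood test, 0 of 89 members and 0.0% of all genes passed an adjusted p of 0.05 in each of the 3 comparisons and in the test of any difference among the classes. DESeq2 and limma-voom gave 0 members as well. The smallest adjusted p among members was 0.3595 for Sub-fertile against High-fertile, 0.4347 for Infertile against High-fertile and 0.9983 for Infertile against Sub-fertile heifers. The counts that follow use an unadjusted p under 0.05 and describe where the members lie. For the main fit, the covariate and the 8-library set the share of all genes at the same limit is given beside them. For other fits, such as DESeq2, limma-voom, summed copies or a library left out, no such share was computed. A change of count in those fits cannot be read as particular to the members. In the test of any difference 12 of 89 members reached it, against 8.42% of all genes.

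Infertile against High-fertile heifers gave the most members at the unadjusted limit, nearly all in 1 direction. At an unadjusted p under 0.05, 17 members were higher in Infertile heifers and 1, NDUFA4L2, was lower, which is 19.1% and 1.12% of the 89 against 7.14% and 3.89% of all genes. All 17 are subunits: 8 of complex I, 1 of complex III, 2 of complex IV and 6 of complex V. The classes did not overlap for 6 members higher in Infertile heifers (1.13% of all genes) and for 0 members lower (1.1% of all genes). DESeq2 gave 20 higher and 1 lower, and limma-voom 17 and 1. With the technical set as a covariate 22 were higher and 0 lower, against 4.24% and 3.42% of all genes, and 14 of the 22 were among the 17. Within the 8-library set 12 were higher and 0 lower, against 2.06% and 2.34%, and 9 of the 12 were among the 17. Leaving out High-fertile heifer 1 raised the count of 18 to 28, while leaving out High-fertile 3 or 5 gave 10 and leaving out Infertile 5 gave 11.

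Over all 89 members, those that reached the limit included, 58 had a higher mean in Infertile than in High-fertile heifers, 65.2% beside 53.4% of all genes, and their median log2 fold change was 0.08, beside 0.04 over all genes. With the set as a covariate 76 were higher, beside 52.0% of all genes, and the median was 0.13. Within the 8-library set 79 were higher, beside 49.7% of all genes, and the median was 0.16. By complex the median log2 fold change was 0.22 for complex V with 14 of 17 higher, 0.08 for complex I with 29 of 45 higher, 0.02 for complex III with 5 of 8 higher, 0.01 for complex IV with 8 of 15 higher and -0.01 for complex II with 2 of 4 higher. The order depended on the fit: with the covariate the medians were 0.18 for complex V, 0.15 for complex IV with 12 of 15 higher, 0.12 for complex I, 0.06 for complex II with 4 of 4 higher and 0.05 for complex III with 7 of 8 higher.

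**Figure D3:**
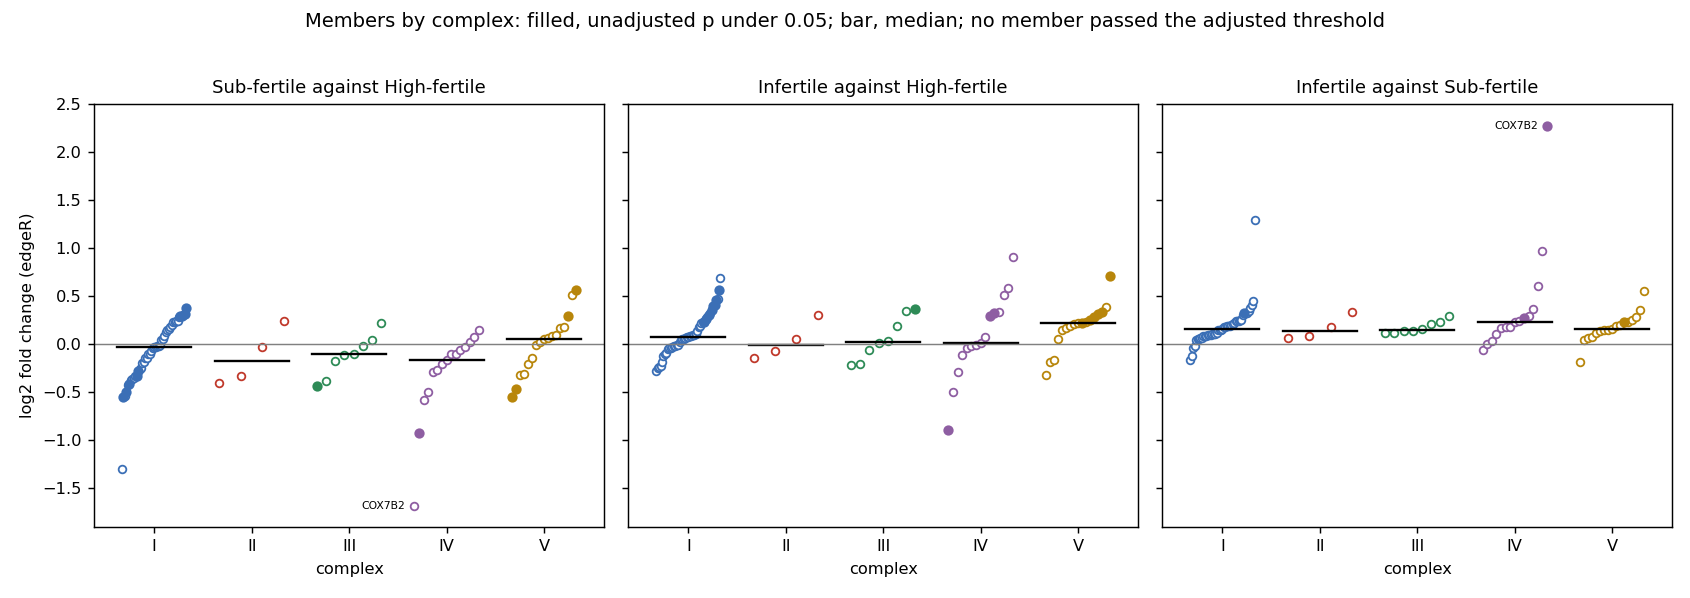
Log2 fold change of each tested member by complex in the 3 comparisons (positive is higher in the class named first); filled points reached an unadjusted p of 0.05 in edgeR, open points did not, and bars are medians. The middle panel has 17 filled points above 0 and 1 below, the left panel 6 above and 9 below, and in the right panel 83 of 89 points lie above 0 with 4 filled, and the outlying point of COX7B2 rests on counts near 0.

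Against Sub-fertile heifers, the Infertile heifers had the higher mean for 83 of 89 members, 93.3%, where 54.7% of all genes were higher. The median log2 fold change was 0.17, beside 0.03 over all genes. Every one of the 78 tested subunits was on this side, and the 6 exceptions were among the assembly factors and associated proteins. With the set as a covariate 82 were higher and 7 lower with a median of 0.11, and within the 8-library set 72 and 17 with a median of 0.08. The shares of all genes higher were 53.3% and 49.8%. Subunits were 3 of the 7 lower with the covariate and 12 of the 17 lower within the 8-library set. The split between subunits and other members therefore held only without the set in the model. Few of these differences reached the unadjusted limit singly. At an unadjusted p under 0.05, 4 members were higher and 0 lower, which is 4.49% of members against 1.91% and 0.721% of all genes, and the 4 were ATP5G3, COX5A, COX7B2 and NDUFB10. The classes did not overlap for 3 members, COX7B2, ATP5G3 and ATP5J2, all higher (0.12% of all genes), and for 0 lower (0.0852% of all genes). With the set as a covariate 7 were higher and 0 lower, against 0.977% and 0.771% of all genes, and within the 8-library set 2 and 0, against 2.65% and 2.06%. Without Sub-fertile heifer 2 the count of 4 became 1, without Sub-fertile 5 or Infertile 1 it became 2, and without Sub-fertile 4 it became 9.

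Between Sub-fertile and High-fertile heifers the members divided. At an unadjusted p under 0.05, 6 were higher in Sub-fertile heifers and 9 lower, 6.74% and 10.1% of members against 6.58% and 7.14% of all genes, so the shares lay near the background. With upper quartile scaling the split was 9 higher and 6 lower, and 44 higher against 45 lower over all members in place of 34 against 55. The classes did not overlap for NDUFC2, ATP5J and ATP5S, which were higher (2.26% of all genes), and for 1 member that was lower (2.81% of all genes). With the technical set as a covariate 0 members reached the limit in either direction, against 1.32% and 1.19% of all genes. Within the 8-library set 1 did, ATP5S, which was higher, against 2.88% of all genes higher and 4.55% lower. The count of 15 became 7 without High-fertile heifer 3, 9 without High-fertile 5, 5 without Sub-fertile 1, 3 without Sub-fertile 2, 4 without Sub-fertile 5 and 27 without Sub-fertile 4. No share over all genes was computed with a library left out. Sub-fertile 1, 2 and 5 are the Sub-fertile libraries of the 5-library set, while Sub-fertile 3 and 4 share the 8-library set with High-fertile 2 to 5. The median log2 fold change of -0.06 was 0.02 with the covariate and 0.01 without the 2-library set.

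Complex I, the entry point of NADH electrons, gave 8 of the 17 members that were higher in Infertile than in High-fertile heifers: NDUFS1, NDUFV2, NDUFS4, NDUFA5, NDUFA6, NDUFB5, NDUFB6 and NDUFC2. NDUFS1, the largest core subunit, which carries iron-sulfur clusters along the electron path, measured 85.9, 88.9, 81.1, 77.5 and 80.0 CPM in High-fertile heifers 1 to 5. It measured 109.9, 99.98, 100.1, 85.1 and 111.7 CPM in Sub-fertile and 100.9, 92.2, 121, 94.2 and 120.5 CPM in Infertile heifers. Each Infertile library lay above each High-fertile library, while the Sub-fertile libraries spanned the gap, with Sub-fertile 4 inside the High-fertile range. The log2 fold change of Infertile against High-fertile was 0.36 ± 0.11 (SE; edgeR, unadjusted p = 0.00496), and 0.24 with the set as a covariate. NDUFB5, an accessory subunit of the membrane arm, measured 36.3, 35.7, 34.5, 33.5 and 36.2 CPM in High-fertile heifers and 48.2, 43.6, 55.6, 39.1 and 55.6 CPM in Infertile heifers. Its Sub-fertile levels were 51.5, 45.8, 41.9, 34.7 and 54.6 CPM, which again bridged both classes. The High-fertile heifers stayed within 3 CPM of each other and all lay below the Infertile ones, with a log2 fold change of 0.46 ± 0.13 (edgeR, unadjusted p = 0.00365) and of 0.30 with the covariate.

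NDUFA5 and NDUFB6, accessory subunits of the peripheral and the membrane arm, were the other complex I members whose High-fertile and Infertile libraries did not overlap. NDUFA5 measured 15.2, 14.6, 12.53, 15.4 and 12.9 CPM in High-fertile, 17.1, 17.8, 18.8, 14.6 and 18.4 CPM in Sub-fertile and 17.8, 19.9, 18.9, 15.9 and 20.8 CPM in Infertile heifers. NDUFB6 measured 18.6, 19.01, 18.5, 17.2 and 19.8 CPM in High-fertile, 23.4, 23.8, 19.4, 20.2 and 29.1 CPM in Sub-fertile and 24.1, 20.5, 27.3, 21.4 and 30.6 CPM in Infertile heifers. For both, the gap between the nearest High-fertile and Infertile libraries was under 1 CPM. The log2 fold changes of Infertile against High-fertile were 0.40 ± 0.12 and 0.41 ± 0.14 (edgeR, unadjusted p = 0.00515 and 0.0104), and with the covariate 0.33 and 0.25. NDUFA6, an accessory subunit of the LYR family, measured 26.0, 25.6, 24.2, 23.7 and 22.2 CPM in High-fertile and 28.6, 23.7, 34.0, 28.4 and 35.3 CPM in Infertile heifers, with Infertile 2 inside the High-fertile range.

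Other complex I members went the opposite way in Sub-fertile heifers. Of the 7 core subunits 5 had a lower mean in Sub-fertile than in High-fertile heifers, and NDUFS7 and NDUFV1 were among those that reached an unadjusted p of 0.05. NDUFV1, the flavoprotein that takes electrons from NADH, measured 60.4, 53.1, 53.1, 44.2 and 51.1 CPM in High-fertile and 28.7, 27.4, 47.0, 50.5 and 25.4 CPM in Sub-fertile heifers. In Infertile heifers it measured 61.3, 50.3, 30.9, 49.8 and 31.9 CPM. Only the 5-library set was low, in both classes, and the log2 fold change of Sub-fertile against High-fertile, -0.55 ± 0.23, was -0.11 with the covariate and -0.06 within the 8-library set. NDUFB10, an accessory subunit of the membrane arm, had the smallest p of complex I for Infertile against Sub-fertile heifers. It measured 49.1, 50.4, 46.7, 58.5 and 45.9 CPM in Sub-fertile and 74.0, 72.9, 54.0, 58.5 and 53.1 CPM in Infertile heifers, a log2 fold change of 0.32 ± 0.12 (edgeR, unadjusted p = 0.0189).

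Of the 8 complex I assembly factors, which build the complex but do not stay in it, 7 had a higher mean in Sub-fertile than in High-fertile heifers and 6 in Infertile than in High-fertile heifers, with medians of 0.21 and 0.14. With the covariate these became 5 and 4 of 8, with medians of 0.03 and 0.03. Against Sub-fertile heifers 4 of the 8 were higher in Infertile heifers and 4 lower, with a median of 0.02, while all 37 complex I subunits were higher there with a median of 0.19. Of all genes 54.7% were higher. With the covariate 6 of the 8 factors were higher (median 0.04) and 36 of the 37 subunits (median 0.12), beside 53.3% of all genes. Within the 8-library set these were 3 of 8 (median -0.02) and 35 of 37 (median 0.11), beside 49.8% of all genes. NDUFAF3 was the 1 factor that reached the limit, lower in Sub-fertile heifers with a log2 fold change of -0.42 ± 0.17 (edgeR, unadjusted p = 0.0289). It was low in Sub-fertile 1, 2 and 5, of the 5-library set, and the fold change was -0.11 with the covariate and -0.04 within the 8-library set. NDUFAF5 measured 3.13 to 3.21 CPM in High-fertile, 2.57 to 4.28 in Sub-fertile and 2.53 to 3.94 in Infertile heifers, which overlapped throughout.

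In complex II no member reached an unadjusted p of 0.05 in any comparison. SDHB measured 92.8, 88.7, 81.0, 90.0 and 86.6 CPM in High-fertile, 79.4, 81.3, 86.9, 98.3 and 84.1 CPM in Sub-fertile and 96.0, 80.0, 96.2, 87.5 and 96.0 CPM in Infertile heifers, with full overlap. SDHD measured 114.9, 122.3, 107.7, 108.7 and 112.1 CPM in High-fertile and 120.5, 100.2, 166.7, 130.3 and 182 CPM in Infertile heifers. The 2 highest Infertile libraries were those of the 5-library set, and the log2 fold change was 0.31 ± 0.15 (edgeR, unadjusted p = 0.0524), or 0.11 with the covariate. SDHA had its lowest values, 92.9, 98.9 and 100.6 CPM, in Sub-fertile 1, 2 and 5, against 132 to 168.5 CPM in High-fertile heifers. Those Sub-fertile libraries are of the 5-library set. With the covariate the log2 fold changes of the 4 complex II subunits, Sub-fertile against High-fertile, were -0.09 to -0.02, and within the 8-library set -0.07 to 0.09.

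Of complex III, UQCRB, a subunit that binds ubiquinone, reached the limit in Infertile against High-fertile heifers. It measured 41.5, 37.6, 35.1, 32.1 and 32.0 CPM in High-fertile, 39.1, 37.4, 41.9, 39.3 and 49.8 CPM in Sub-fertile and 46.4, 36.4, 51.4, 39.6 and 55.0 CPM in Infertile heifers. Infertile 2 and 4 lay inside the High-fertile range, and the log2 fold change was 0.36 ± 0.13 (edgeR, unadjusted p = 0.0166), or 0.26 with the covariate (unadjusted p = 0.0572). UQCRFS1, the Rieske iron-sulfur protein that moves electrons to cytochrome c1, had a log2 fold change of 0.18 ± 0.12 in the same comparison, 0.24 with the covariate (edgeR, unadjusted p = 0.1329 and 0.04002), and overlapped between classes, from 48.6 to 58.0 CPM in High-fertile and 49.2 to 70.1 CPM in Infertile heifers. UQCRC1, a core protein, was lower in Sub-fertile heifers by the unadjusted limit. It measured 107, 99.3, 94.7, 89.6 and 91.7 CPM in High-fertile and 53.9, 56.3, 93.5, 97.4 and 54.4 CPM in Sub-fertile heifers. The 3 low values were all from the 5-library set, and within the 8-library set the log2 fold change turned from -0.44 ± 0.20 to 0.01. UQCRC2 measured 45.2 CPM in High-fertile heifer 1 and 18.98 to 21.1 CPM in the other High-fertile heifers.

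Complex IV, the oxidase, gave the smallest unadjusted p of any member in Infertile against High-fertile heifers. NDUFA4 measured 73.5, 68.4, 63.2, 71.1 and 59.3 CPM in High-fertile, 71.3, 73.8, 75.6, 75.3 and 75.2 CPM in Sub-fertile and 86.8, 84.8, 81.5, 72.7 and 93.0 CPM in Infertile heifers. Infertile 4 lay just under High-fertile 1 and the other Infertile libraries lay above all High-fertile ones. The log2 fold change was 0.32 ± 0.09 (edgeR, unadjusted p = 0.00301, adjusted p = 0.4347), 0.30 with the covariate and 0.27 within the 8-library set, and 0.28 to 0.38 with each library left out in turn. Its level differed little between sets, by 0.05 and 0.11 log2 units for the 5- and the 2- against the 8-library set.

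NDUFA4L2, the related protein known as a target of hypoxia signalling and as an inhibitor of complex I activity, lay on the other side. It measured 8.66, 9.42, 9.43, 4.36 and 14.0 CPM in High-fertile, 4.15, 3.82, 6.14, 7.28 and 2.80 CPM in Sub-fertile and 4.61, 6.68, 2.67, 8.55 and 2.17 CPM in Infertile heifers. High-fertile 4 overlapped both other classes. Its share of the FPKM of the pair averaged 7.40% in High-fertile, 3.60% in Sub-fertile and 3.37% in Infertile heifers. The log2 fold changes against High-fertile heifers were -0.92 ± 0.40 for Sub-fertile and -0.89 ± 0.40 for Infertile (edgeR, unadjusted p = 0.0351 and 0.0402). With the covariate they were -0.28 and -0.58, and the log2 fold change of the 5- against the 8-library set was -1.17. The pericyte and endothelial markers were lower as well: 7 of 7 endothelial markers were lower in both classes than in High-fertile heifers, 2 and 4 of them at an unadjusted p under 0.05, and their sum was 826 to 1522 CPM in High-fertile, 691 to 1034 in Sub-fertile and 676 to 996 in Infertile heifers. Of 6 pericyte markers 5 were lower in each class, and the sum was 634 to 1062, 470 to 766 and 434 to 808 CPM in the same order, so these lists lay on the same side as NDUFA4L2, and their part in the result was not tested.

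COX5A, a subunit that receives regulatory signals on the matrix side, measured 55.0, 50.9, 41.9, 44.1 and 45.2 CPM in High-fertile, 48.6, 43.0, 53.4, 48.0 and 47.6 CPM in Sub-fertile and 53.5, 71.9, 55.5, 52.1 and 56.9 CPM in Infertile heifers. Infertile 2 stood far above the other Infertile libraries. The log2 fold changes of Infertile heifers were 0.29 ± 0.11 against High-fertile and 0.27 ± 0.11 against Sub-fertile (edgeR, unadjusted p = 0.0226 and 0.0329), and they were 0.20 and 0.18 without Infertile 2 and 0.20 and 0.06 within the 8-library set. COX4I1, the general form of the regulatory subunit, measured 183.9 to 227.8 CPM in High-fertile, 158.3 to 201.4 in Sub-fertile and 172.4 to 211.4 CPM in Infertile heifers, and the classes overlapped. COX7B2 was near the limit of detection, at 0 to 1.29 CPM in High-fertile, 0 to 0.295 in Sub-fertile and 0.461 to 1.52 CPM in Infertile heifers. It had 345 counts in all and was at 0 in 2 libraries, so its fitted fold change depends on the prior count and is not given. COX8B was also rare, at 0.210 to 0.350 CPM in Infertile, 0.0536 to 0.279 in High-fertile and 0 to 0.341 CPM in Sub-fertile heifers. COX4I2, a form known from lung and from hypoxic cells, measured 1.45 to 2.10, 0.774 to 1.69 and 0.766 to 1.59 CPM in High-fertile, Sub-fertile and Infertile heifers.

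The ATP synthase gave 6 of the 17 members higher in Infertile than in High-fertile heifers, 3 of F1 (ATP5A1, ATP5C1 and ATP5E, the alpha, gamma and epsilon subunits) and 3 of the Fo part and stalk (ATP5G3, ATP5J and ATP5O). ATP5J, coupling factor 6 of the stalk, measured 50.7, 51.6, 47.4, 50.7 and 49.0 CPM in High-fertile, 60.9, 65.8, 53.3, 58.4 and 67.5 CPM in Sub-fertile and 64.6, 51.7, 70.02, 52.2 and 75.7 CPM in Infertile heifers. No Sub-fertile and no Infertile library came down to the High-fertile range, though Infertile 2 and 4 lay at its edge. The log2 fold changes against High-fertile heifers were 0.29 ± 0.12 for Sub-fertile and 0.33 ± 0.12 for Infertile (edgeR, unadjusted p = 0.0235 and 0.0122), and with the covariate they were 0.11 and 0.21. ATP5H, the d subunit of the stalk, measured 96.3, 92.7, 88.5, 96.1 and 94.3 CPM in High-fertile and 112.2, 96.5, 104.0, 103.4 and 101.3 CPM in Infertile heifers. Infertile 2 lay just above the highest High-fertile library, so the classes did not overlap, but they differed by only 0.14 ± 0.08 log2 units (edgeR, unadjusted p = 0.0789).

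ATP5G3, of the c ring, was the complex V member whose Infertile libraries lay above all Sub-fertile ones at an unadjusted p under 0.05. It measured 90.2, 83.7, 73.0, 67.1 and 71.0 CPM in High-fertile, 76.8, 75.5, 74.4, 81.0 and 73.8 CPM in Sub-fertile and 97.9, 91.3, 87.0, 82.5 and 88.4 CPM in Infertile heifers. High-fertile 1 and 2 reached into the Infertile range and the other 3 did not. The log2 fold change of Infertile heifers was 0.23 ± 0.10 against Sub-fertile and 0.22 ± 0.10 against High-fertile (edgeR, unadjusted p = 0.0295 and 0.0383), and with the covariate 0.19 and 0.23. ATP5J2, the f subunit of Fo, measured 39.3, 39.5, 38.7, 39.5 and 39.2 CPM in Sub-fertile and 45.8, 45.1, 44.3, 41.5 and 42.0 CPM in Infertile heifers. Sub-fertile heifers lay within 1 CPM of each other and below every Infertile heifer, while High-fertile heifers, at 33.8 to 43.3 CPM, overlapped both. Its log2 fold change of Infertile against Sub-fertile was 0.16 ± 0.09 (edgeR, unadjusted p = 0.1105).

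**Figure D4:**
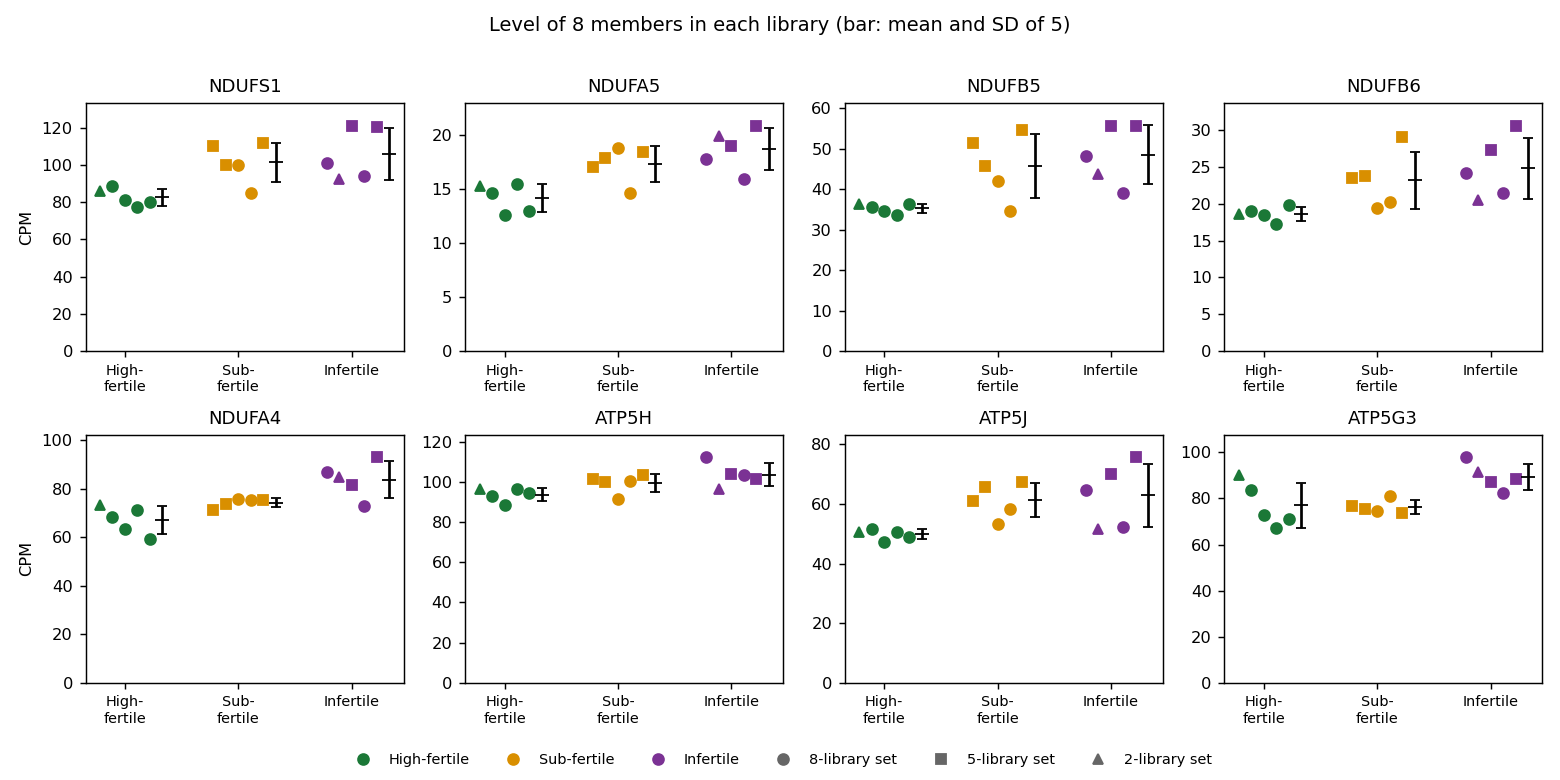
CPM of 8 members in each library by class, from 0, with mean and SD of the 5 heifers at the right of each class; marker shapes give the technical set. In NDUFS1, NDUFA5, NDUFB5, NDUFB6, ATP5H and ATP5J every Infertile point lies above every High-fertile point, in ATP5G3 every Infertile point lies above every Sub-fertile point, and in NDUFA4 1 Infertile point dips into the High-fertile range.

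ATP5E had the largest log2 fold change of the 17, 0.70 ± 0.24 (edgeR, unadjusted p = 0.0116). With ATP5E summed with its described copies the log2 fold change was 0.32 (edgeR, unadjusted p = 0.00623). ATP5E itself measured 12.2, 8.27, 8.34, 6.63 and 6.47 CPM in High-fertile and 11.5, 18.3, 17.2, 8.18 and 13.1 CPM in Infertile heifers. The high Infertile values were those of the 2- and 5-library sets, the fold change was 0.47 with the covariate and 0.39 within the 8-library set, and its described copies took 75.3% to 89.8% of the summed reads of ATP5E and copies. ATP5B, the most abundant member, measured 318.2 to 406.2 CPM in High-fertile, 322 to 432.3 in Sub-fertile and 391.7 to 451.2 CPM in Infertile heifers and did not reach the limit. ATP5S, also called factor B and only loosely tied to the synthase, was higher in Sub-fertile than in High-fertile heifers. It measured 11.3, 11.7, 10.2, 10.5 and 9.17 CPM in High-fertile and 13.1, 19.6, 15.8, 12.1 and 17.7 CPM in Sub-fertile heifers, without overlap. The log2 fold change was 0.57 ± 0.21 (edgeR, unadjusted p = 0.0189), 0.26 with the covariate and 0.41 within the 8-library set. ATP5G1 measured 22.8 to 34.8, 20.2 to 28.7 and 21.2 to 39.5 CPM in High-fertile, Sub-fertile and Infertile heifers, and ATP5G2 106.6 to 195, 103.6 to 131 and 109.6 to 237 CPM.

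At an adjusted p under 0.05 more members differed between the technical sets than between the classes. The sets were clustered from counts of these same libraries, so differences between them are expected in advance. Their p values therefore cannot be set against those of the classes. Between the 5- and the 8-library set, with the class in the model, 17 members were higher and 29 lower at an adjusted p under 0.05 in edgeR, against 13.1% and 17.6% of all genes. Between the 2- and the 8-library set 16 were higher and 1 lower, against 1.56% and 3.0% of all genes. Members much lower in the 5-library set were NDUFS6, a subunit next to the NADH site, by a log2 fold change of -1.38, COX6B1 by -1.33 and ATP5D, the delta subunit of F1, by -0.86. Members much higher in the 2-library set were NDUFA3 at 2.24, COX7A2 at 2.08, COX7B at 1.45, NDUFC1 at 1.43 and ATP5L at 1.39. Here COX6B1, NDUFA3 and ATP5L are counted without their described copies. NDUFS6 measured 33.6 to 43.7 CPM in the 8-library set, 13.4 to 18.7 in the 5-library set and 37.1 to 39.4 CPM in the 2-library set, so the 5-library set lay wholly below the others. Members that differed in neither comparison numbered 38, a group picked after their values were seen. Of these, 33 had a higher mean in Infertile than in High-fertile heifers, and the median log2 fold change was 0.16. Against Sub-fertile heifers 35 did with a median of 0.13, and between Sub-fertile and High-fertile heifers 19 were higher and 19 lower. No share of all genes picked in the same way was computed, so these counts have no background beside them.

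**Figure D5:**
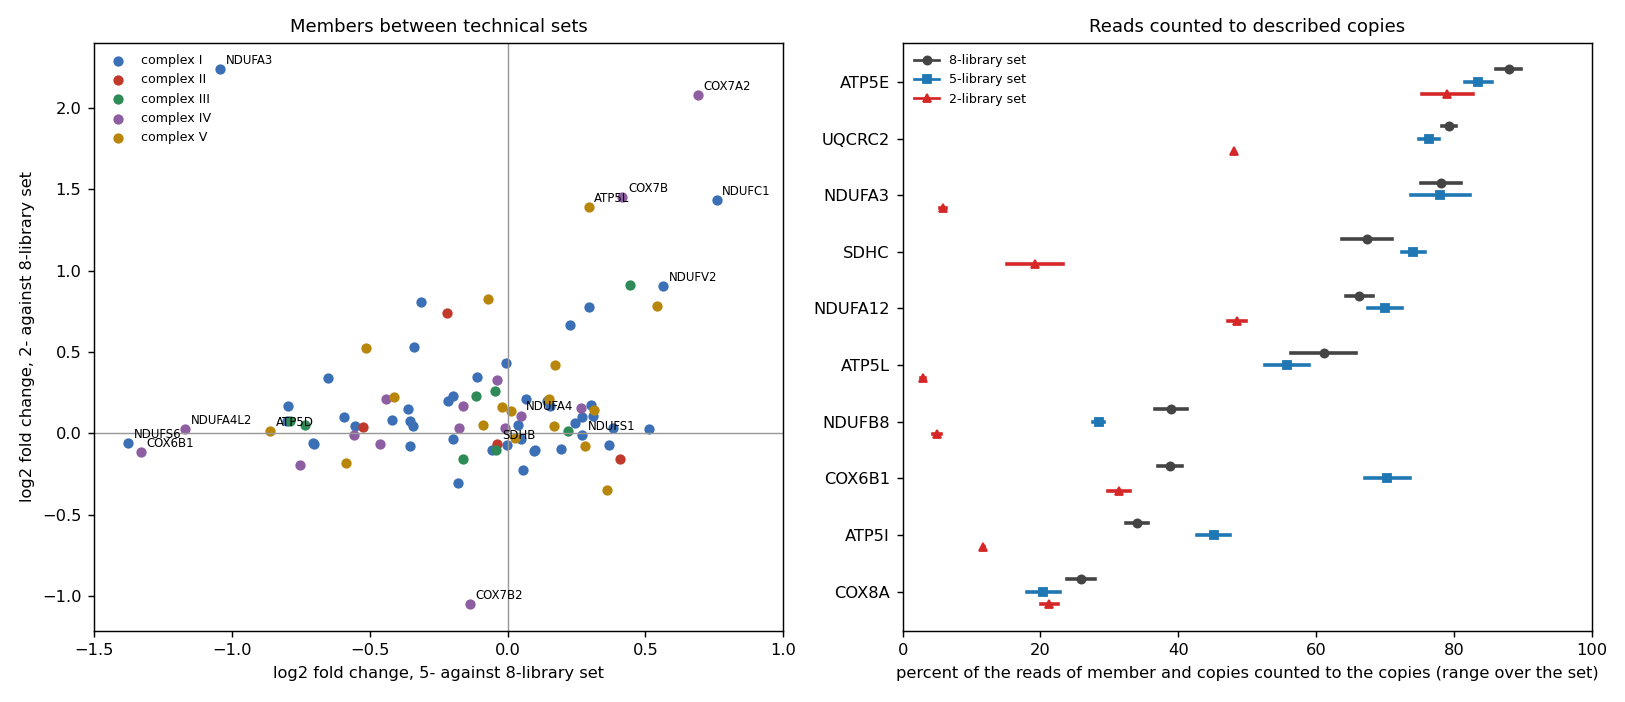
Left, log2 fold change of each tested member between the 5- and 8-library sets (horizontal) and between the 2- and 8-library sets (vertical), coloured by complex. Right, percent of the reads of a member and its described copies that were counted to the copies, for members where it exceeds 3% in the 8-library set, as the range over the libraries of each set; NDUFA3 and ATP5L drop to under 7% in the 2-library set, and the copies of COX6B1 take more of the reads in the 5-library set than in the others.

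The division of reads between members and their described copies also differed between sets. The table holds 19 entries described as copies of 15 tested members, 12 of them as pseudogenes, which are among the kinds of entry from which the sets were drawn. For ATP5L, the g subunit of Fo, the copies took 56.4% to 65.8% of the summed reads in the 8-library set, 52.6% to 58.9% in the 5-library set and 2.63% to 3.28% in the 2-library set. For NDUFA3 the shares were 75.2% to 81.0%, 73.7% to 82.3% and 5.41% to 6.36%. For COX6B1 they were 37.0% to 40.5%, 67.0% to 73.6% and 29.8% to 33.03%, for UQCRC2 78.2% to 80.3%, 74.9% to 77.9% and 48.0% to 48.1%, and for SDHC 63.7% to 71.0%, 72.4% to 75.8% and 15.2% to 23.3%. The levels of these members are uncertain for that reason. Summed with its copies, ATP5L measured 90.7 to 123.4, 99.8 to 111.6 and 109.3 to 111.7 CPM in the 8-, 5- and 2-library sets. In the same order the sums were 23.9 to 32.0, 12.3 to 13.9 and 27.9 to 31.8 CPM for NDUFA3. For COX6B1 they were 31.4 to 38.8, 26.5 to 31.75 and 27.3 to 29.3 CPM. UQCRC2 gave 89.0 to 119.4, 107.8 to 155.5 and 71.8 to 86.85 CPM, and SDHC 100.4 to 150.0, 116.5 to 146.3 and 78.65 to 88.9 CPM. Among the 74 tested members with no described copy the counts at an unadjusted p under 0.05 were 14 higher and 1 lower for Infertile against High-fertile, 6 and 8 for Sub-fertile against High-fertile and 4 and 0 for Infertile against Sub-fertile heifers. With each member summed with its copies, an alternative added after seeing the data, the counts over all members were 17 and 1, 7 and 8, and 4 and 0.

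Genes around the chain were read from lists of the same kind. PPARGC1A, a coactivator that drives transcription of mitochondrial genes, measured 17.95, 20.6, 14.9, 14.2 and 14.9 CPM in High-fertile, 31.1, 21.4, 22.1, 19.9 and 23.6 CPM in Sub-fertile and 28.9, 24.3, 32.0, 21.2 and 32.3 CPM in Infertile heifers. All Infertile libraries lay above all High-fertile ones, and Sub-fertile 4 lay just inside the High-fertile range. The log2 fold change of Infertile against High-fertile was 0.75 ± 0.16 (edgeR, unadjusted p = 0.000375, adjusted p = 0.4347), and 0.61 with the covariate. APOO, a subunit of the MICOS complex that shapes the cristae where the chain sits, measured 7.29, 7.76, 7.02, 6.19 and 6.14 CPM in High-fertile, 10.8, 8.96, 10.4, 8.93 and 10.9 CPM in Sub-fertile and 8.99, 11.9, 12.1, 9.33 and 12.6 CPM in Infertile heifers. Both other classes lay wholly above the High-fertile one, with log2 fold changes of 0.54 ± 0.15 for Sub-fertile and 0.67 ± 0.15 for Infertile heifers (edgeR, unadjusted p = 0.00238 and 0.000364). Of 20 regulators of mitochondrial biogenesis 3 were higher and 0 lower at an unadjusted p under 0.05 in Infertile against High-fertile heifers and 4 and 0 in Sub-fertile against High-fertile heifers, and with the covariate these were 3 and 0, and 0 and 0. The shares of all genes higher at this limit were 7.14% and 6.58%. The orphan receptor ESRRG, a partner of PPARGC1A, was among them at 0.635 to 0.858 CPM in High-fertile, 0.656 to 4.28 in Sub-fertile and 1.00 to 2.99 CPM in Infertile heifers.

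Of 7 MICOS genes 2 were higher and 0 lower in Infertile against High-fertile heifers at this limit, APOO and APOOL, and of 13 citric acid cycle enzymes 4 and 0, including the isocitrate dehydrogenase subunit IDH3A at a log2 fold change of 0.42 ± 0.14. Of 33 assembly factors outside the name rule 2 were higher and 2 lower, among the latter the complex III factor UQCC3 at -0.42 ± 0.14, or -0.28 with the covariate. Of the 5 other subunits and carriers 1 was higher, cytochrome c itself (CYCS), at 0.44 ± 0.20, or 0.29 with the covariate. Of 77 mitochondrial ribosomal proteins 7 were higher and 0 lower, with MRPS21 at 0.33 ± 0.09, and their median was 0.04. These 7 are 9.09% of the list, beside 7.14% of all genes higher and 3.89% lower at the limit, and the other lists are to be read against the same shares. Of 81 cytosolic ribosomal proteins 1 was higher, RPL12, with a median of 0.06.

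The cytosolic ribosomal proteins, which are not part of mitochondria, had the same direction as the members in the comparison of Infertile with Sub-fertile heifers. Of the 81, 77 had a higher mean in Infertile heifers, and their median log2 fold change was 0.26, beside 83 of 89 members with a median of 0.17 and 54.7% of all genes higher. With the covariate the medians were 0.09 for these proteins and 0.11 for the members, and within the 8-library set 0.34 and 0.08. Mitochondrial ribosomal proteins were higher in 60 of 77 with a median of 0.09. In Infertile against High-fertile heifers 8 of 8 tested markers of ciliated epithelium were also higher, 6 of them at an unadjusted p under 0.05, with sums of 135 to 264 CPM in High-fertile, 145 to 574 in Sub-fertile and 187 to 541 CPM in Infertile heifers. Leukocyte markers were lower, 7 of 7, with 3 at that limit and sums of 64.6 to 120.1, 52.5 to 70.02 and 48.2 to 84.6 CPM. In Infertile against Sub-fertile heifers 10 of 10 smooth muscle markers were higher, with a median log2 fold change of 1.02. So were 8 of 8 tested ciliated markers (0.51), 7 of 7 leukocyte markers (0.22) and 7 of 9 glandular and luminal epithelial markers (0.08). Of 7 stromal markers 4 were higher, of 6 pericyte markers 4 and of 7 endothelial markers 2. In these lists 0 markers reached an unadjusted p under 0.05 there. The part of these cell types in the members' levels was not tested.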

How the data were processed

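RNA from 15 endometrial biopsies (polyA RNA, a stranded mRNA kit per the labels' protocols) had been sequenced, and the authors deposited 1 table of raw counts and FPKM per gene. Per the submitters' processing notes FastQC, Subread, featureCounts, edgeR and the build UMD 3.1 were used. The sources used here give no versions, no strand setting and no rule for multiply matching reads. All tests used the deposited counts, and the FPKM deposited by the authors only to compare levels between genes. Library totals of 38017136 to 62858724 counts set the precision.

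Genes were kept by filterByExpr (19962 of 32671), scaled by TMM and fitted over all 15 libraries with edgeR 4.0.16 in R 4.3.3 (quasi-likelihood test, robust, two-sided, Benjamini-Hochberg over all genes). SE is the log2 fold change over the square root of F. CPM uses TMM-scaled library sizes, and log2 CPM a prior count of 2. DESeq2 1.42.0, limma 3.58.1 (voom), other scalings and filters (CPM of at least 1 in 5 libraries), the 10 libraries compared, the technical set and each library left out were alternatives. The fits were tested on simulated data. Technical sets came from average-linkage clustering of 372 pseudogene and ribosomal RNA entries. Tables used pandas 2.3.3 and figures matplotlib 3.10.9.

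The members, lists, sets and tests were chosen with earlier results of these data known. Named genes were the 2 members of each complex with the smallest p in each comparison, its highest and lowest tested member by FPKM, the complex II subunits, the isoform sets, the members not tested, and, from each other list, genes with the smallest p against High-fertile heifers. NDUFA3, NDUFA5, NDUFA9, NDUFB6, NDUFS6, NDUFV1, ATP5D, ATP5H, ATP5L and the members listed with a count were named after their values were seen. The RefSeq names table matched 73 members by symbol and 17 by synonym. No sequence or coordinate is printed. The values of 1 member are not reported here, though the counts include it.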

Additional observations from a re-analysis of the deposited data

Results flagged for a closer look

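Of 132 groups of 5 heifers looked at, 8 held a library far from the other 4, and chance flags about 1 in 20 groups. High-fertile heifer 1, of the 2-library technical set, gave 5 of them. It measured 45.2 CPM for UQCRC2 (18.98 to 21.1 in the other High-fertile heifers), 227.8 CPM for COX4I1 (183.9 to 190.5), 35.4 CPM for COX7A2 (7.06 to 8.85), 43.2 CPM for COX7B (13.6 to 15.8) and 195 CPM for ATP5G2 (106.6 to 117.2). Infertile heifer 2, the other library of that set, measured 71.9 CPM for COX5A, where the other Infertile heifers had 52.1 to 56.9 CPM. Sub-fertile heifer 4 measured 201.4 CPM for COX4I1 against 158.3 to 160.9 CPM in its class. Infertile heifer 3 measured 1.52 CPM for COX7B2 against 0.461 to 0.723 CPM.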

How the results depend on the processing

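No member passed an adjusted p of 0.05 under any setting run, so the values here are counts at an unadjusted p under 0.05 and medians of log2 fold changes. For Sub-fertile against High-fertile heifers the count of 15 became 0 with a covariate for the technical set, 0 with members summed with their copies and the covariate (an alternative chosen after seeing the data), and 1 in the 8-library set alone. The median of -0.06 became 0.058 in that set, and UQCRC1 changed from -0.44 to 0.0144 (edgeR, unadjusted p = 0.8677). For Infertile against Sub-fertile heifers the count of 4 became 2 with only the 10 libraries compared, 7 with the covariate and 2 in the 8-library set. The count of 12 for any difference became 2 in the 8-library set and 19 without the 2-library set. The causes were not tested, but the 8-library set has fewer samples. With each library left out in turn the counts ran from 3 (without Sub-fertile 2) to 27 (without Sub-fertile 4) for Sub-fertile against High-fertile, from 10 (without High-fertile 3 or 5) to 28 (without High-fertile 1) for Infertile against High-fertile, from 1 (without Sub-fertile 2) to 9 (without Sub-fertile 4) for Infertile against Sub-fertile and from 3 (without High-fertile 3) to 25 (without Sub-fertile 4) for any difference, which was also 5 without High-fertile 5 and 7 without Sub-fertile 2 or Infertile 3. The medians ran from -0.12 to 0.01, from 0.05 to 0.15 and from 0.13 to 0.23 for the 3 comparisons in that order. Of the other settings none moved a count by over 1.5 times. For the test of any difference a share of all genes was computed in the main fit only. For the 3 comparisons it was also computed with the covariate and within the 8-library set, and for no other setting. No paired analysis was possible because the replicate numbers only follow accession order. Members under about 1 CPM (COX6A2, COX6B2, COX7B2, COX8B) are limited by depth.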
